A study of Rattus norvegicus with 6 samples.

Results

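Transcripts of Toll-like receptors and of the proteins that carry their signal were followed in rat RA-FLS, fibroblast-like synoviocytes that serve as a culture model of the inflamed joint lining in rheumatoid arthritis. The genes were chosen by name for their place in this pathway. This choice, and that of the gene lists below, was made with earlier results of these data known. The receptors were Tlr2, Tlr3, Tlr4 and Tlr6, with the co-receptor Cd14. The other genes were the adaptors Myd88 and Ticam1, the kinases Irak1 and Irak4, and the ubiquitin ligase Traf6. Of these 10 names, 9 matched a row among the 34156 genes of the count table, and all 9 had enough counts to be tested among 13614 genes. Ticam1, the adaptor of Tlr3, was not analysed here. Wild-type cells (WT in the labels) in all 6 libraries had received TNF-α at 10 ng/ml, 3 of them with TNF-α alone (TNF-α group) and 3 with EMO, the anthraquinone emodin, added at 80 μmol/L (TNF-α+EMO group). The labels give day 5 as the time of both groups, whereas the study's methods give a shorter incubation. The cells came from one commercial stock, no library without TNF-α was analysed here, and the comparison asked how EMO changed these transcripts in cells that TNF-α already stimulated.

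Toll-like receptors recognise microbial products and molecules released from damaged tissue. Tlr2 pairs with Tlr1 or Tlr6 at the cell surface and binds lipopeptides, Tlr4 responds to lipopolysaccharide handed over by Lbp and Cd14, and Tlr3 senses double-stranded RNA in endosomes. All of the member receptors other than Tlr3 can signal through Myd88, which assembles Irak4 and Irak1 and passes the signal to Traf6 and on to NF-κB, whereas Tlr3, and Tlr4 after internalisation, use Ticam1 to reach Irf3 and interferon. In synovial fibroblasts these receptors are known for driving cytokine, chemokine and protease genes.

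The libraries held between 16813322 and 17794455 counts. A gene is called lower or higher below where its adjusted p was under 0.05 in edgeR's quasi-likelihood fit (Benjamini-Hochberg, 13614 genes). Log2 fold changes are TNF-α+EMO over TNF-α, and normalized counts are counts scaled to the mean library. Change was widespread, with a correlation of 0.717 to 0.729 between libraries of different groups against at least 0.980 within a group. TNF-α+EMO replicate 3 stood somewhat apart from the other libraries of its group, with a chi-square per gene of 25.2 against replicate 1 and 16.1 against replicate 2, while replicates 1 and 2 gave 6.63. The methods call the replicates biological, but neither they nor the labels say that the libraries came from separate cultures, and p-values measure only the spread between these samples.

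Markers of the labelled cell type moved with EMO. Of 9 fibroblast-like synoviocyte markers tested among 14 written, 8 were lower and 1, Dcn, was higher. Among all genes tested, 41.4% were called lower and 39.4% higher. Dcn was nearly absent without EMO, with 0, 4 and 1 counts there and 33, 24 and 26 with EMO. The summed normalized count of the list was 200676 to 220798 in the TNF-α group and 35162 to 37834 in the TNF-α+EMO group. The fibroblast genes Col1a1, which fell 30.0-fold, and Vim were abundant in every library, but the synoviocyte markers Thy1, Pdpn and Prg4 had at most 7 counts in any library. The macrophage list summed to 7745 to 8755 and then 318 to 326 normalized counts. Most of that sum was Cd74 without EMO and Cd68 with it, while the defining members Ptprc, Csf1r, Adgre1, Cd163 and Tyrobp had at most 5 counts anywhere. Of its 14 genes 3 were tested, and Cd74 was lower while Cd68 and Itgam were higher with EMO. The lymphocyte list summed to under 7 normalized counts in every library, and the endothelial and chondrocyte lists had 1 tested gene each, Vwf and Sox9, both lower. The part of these shifts in the results below was not tested.

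The promoters of 3 members are shown because the transcripts moved differently: Tlr2 had the largest fall, while Tlr4 and Myd88 were not called. Each window runs from 250 bases before to 50 bases after the start of the gene in RefSeq on GRCr8, 5′ to 3′ along the gene, at chr2:171504508-171504807 (minus strand) for Tlr2, chr5:85160997-85161296 (plus strand) for Tlr4 and chr8:127956181-127956480 (minus strand) for Myd88. Capitals mark matches to the NF-κB motif, known as the κB site, in Tlr2, and to the AP-1 motif TGANTCA and the interferon regulatory factor motif TTTCNNTTTC in Myd88, each searched on both strands.
Tlr2 promoter: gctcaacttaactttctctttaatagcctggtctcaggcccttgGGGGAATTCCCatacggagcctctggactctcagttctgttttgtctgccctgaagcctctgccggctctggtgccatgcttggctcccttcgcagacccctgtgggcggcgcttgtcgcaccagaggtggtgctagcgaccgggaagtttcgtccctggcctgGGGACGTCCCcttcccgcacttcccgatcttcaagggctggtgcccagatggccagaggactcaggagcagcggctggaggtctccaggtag
Tlr4 promoter: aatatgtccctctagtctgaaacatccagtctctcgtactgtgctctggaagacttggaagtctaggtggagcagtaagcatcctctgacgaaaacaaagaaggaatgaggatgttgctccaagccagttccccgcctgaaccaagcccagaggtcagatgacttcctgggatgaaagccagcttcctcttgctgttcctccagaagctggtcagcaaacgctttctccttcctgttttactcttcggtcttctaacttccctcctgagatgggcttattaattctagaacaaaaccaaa
Myd88 promoter: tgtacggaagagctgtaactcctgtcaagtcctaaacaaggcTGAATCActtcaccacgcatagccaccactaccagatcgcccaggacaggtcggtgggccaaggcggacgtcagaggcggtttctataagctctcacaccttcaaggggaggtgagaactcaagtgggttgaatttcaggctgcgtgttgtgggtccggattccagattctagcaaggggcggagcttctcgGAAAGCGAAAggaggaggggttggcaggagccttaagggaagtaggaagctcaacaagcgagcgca

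The Tlr2 window held κB matches at positions -206 and -205, which overlap, and at -42, counted from the start. No κB match was found in the windows of Tlr3, Tlr4, Tlr6, Cd14, Myd88, Irak1 or Irak4, the other members with an entry. Irak3, an inhibitory relative of Irak1 and Irak4 that is no member and was higher with EMO, had a κB match at -34. The κB motif occurred in 7.51% of 33469 promoter windows of the same length. The Myd88 window had an interferon regulatory factor match at -16, a motif found in 3.92% of windows, and an AP-1 match at -208, found in 7.33%, where the AP-1 motif reads the same on both strands and is counted once. A GC box, GGGCGG, lay at -102 in Tlr2, -31 in Myd88 and -41 in Irak4, and in 33.1% of windows. None of the members' windows held the TATA motif TATAAA, present in 14.2%. A match is a run of letters and does not show binding, and the absence of one says only that the letters are not in the window. Of the 10 members, 8 had an entry, and Traf6 and Ticam1 had none.

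Of the 9 members tested, 5 were lower with EMO (Tlr2, Tlr3, Tlr6, Cd14 and Irak1), 2 were higher (Irak4 and Traf6) and 2 were not called (Tlr4 and Myd88). Among all genes tested 41.4% were called lower and 39.4% higher, so that calls in both directions were common everywhere. With a change over 2-fold also required, 4 members were lower and 1 was higher, against 27.8% and 19.5% of all genes. Normalized counts did not overlap between the groups for 8 of the 9 members, as for 82.9% of all genes. The median log2 fold change of the members was -0.22, and that of all genes was -0.01. Where libraries were scaled by their totals alone, the medians were -0.34 for the members and -0.12 for all genes. Fewer cells of a type and less RNA per cell cannot be told apart in these bulk libraries.

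**Figure D1:**
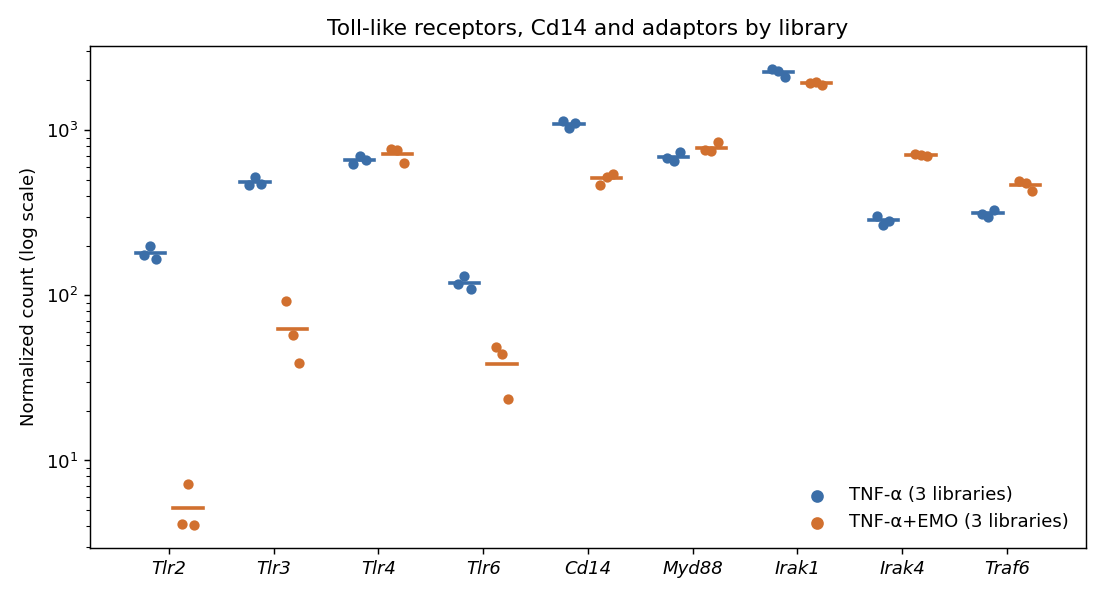
Normalized counts of the 9 members on a log axis, with 1 point per library and a bar at the group mean, for 3 TNF-α and 3 TNF-α+EMO libraries. Tlr2 dropped from a mean of 180 to 5.12 with EMO, Tlr4 overlapped between the groups, and the points of Irak4 and Traf6 lay higher with EMO.

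Tlr2, the lipopeptide receptor, showed the largest change of any member. Without EMO it had 179, 204 and 171 counts, and with EMO 4, 7 and 4. All 3 EMO libraries thus lay far below the lowest library without EMO, but at a depth where a handful of reads sets the value. The mean was 180 ± 16.7 normalized counts without EMO and 5.12 ± 1.77 with it (mean ± SD over 3 libraries, as throughout), which is 34.4-fold lower, with a log2 fold change of -5.10 (standard error 0.27, 95% interval -5.69 to -4.51, edgeR adjusted p = 1.3e-08). Of all genes tested, 4.43% had a lower log2 fold change. The deposited coordinates place Tlr2 on chromosome 2 at 182840727 to 182846061 of Rnor_6.0, on the minus strand.

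Tlr3, the endosomal sensor of double-stranded RNA (chromosome 16, 50016857 to 50031214, plus strand), also fell. It had 474, 537 and 486 counts with TNF-α alone and 90, 56 and 38 with EMO. The EMO libraries differed among themselves by more than those without EMO, and replicate 3 was the lowest. The mean went from 487 ± 31.7 to 62.9 ± 27.5 normalized counts, 7.74-fold lower, a log2 fold change of -2.95 (standard error 0.25, edgeR adjusted p = 3.7e-06). Leaving out one library at a time, it ran from -3.35 without TNF-α+EMO replicate 1 to -2.70 without TNF-α+EMO replicate 3.

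Tlr4, the lipopolysaccharide receptor (chromosome 5, 82587420 to 82601052, plus strand), behaved differently from the other member receptors. Its counts were 638, 718 and 678 in the TNF-α group and 743, 740 and 621 in the TNF-α+EMO group. The groups overlapped, since EMO replicate 3 lay within the range of the TNF-α group after scaling while the other 2 EMO libraries lay above it. The means were 662 ± 37.2 and 719 ± 74.7 normalized counts, a log2 fold change of 0.12 with a 95% interval of -0.09 to 0.33 (edgeR adjusted p = 0.27). That interval leaves room for a small change in either direction but not for one of the size seen in Tlr2, Tlr3 or Tlr6. Without TNF-α+EMO replicate 3 the value was 0.20 and was called higher (edgeR adjusted p = 0.031).

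Tlr6, which forms a heterodimer with Tlr2 (chromosome 14, 45024351 to 45046446, plus strand), was the least abundant member receptor in the TNF-α group per length. It had 120, 134 and 112 counts there and 47, 43 and 23 with EMO. No EMO library reached the lowest TNF-α library, and EMO replicate 3 was again the lowest. The mean fell from 119 ± 10.9 to 38.6 ± 13.4 normalized counts, 3.08-fold lower, a log2 fold change of -1.62 (standard error 0.27, edgeR adjusted p = 1.9e-04). Tlr6 and its neighbour Tlr1 are similar in sequence, and how reads shared by them were counted is not given in the sources used here, so that their separate values are uncertain.

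**Figure D2:**
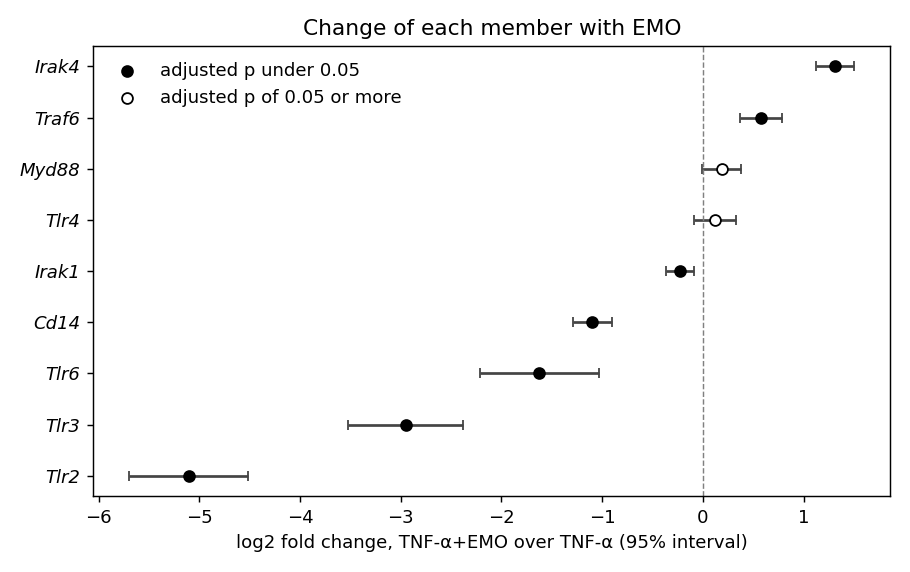
Log2 fold change of each member, TNF-α+EMO over TNF-α, with its 95% interval from edgeR, for 3 libraries in each group. Filled points had an adjusted p under 0.05 and open points did not. Tlr2 lies lowest at -5.10, the intervals of Tlr4 and Myd88 include 0, and Traf6 and Irak4 lie above 0.

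Of the 9 other receptor names, 7 had a row, 2 had enough counts to be tested, and both of these were lower, as were 41.4% of all genes. Tlr5, the flagellin receptor, had 324, 289 and 304 counts without EMO and 0, 1 and 1 with it. That is at least 99.5-fold lower, taking a floor of 3 counts per library (edgeR adjusted p = 9.9e-10). Tlr1, the other partner of Tlr2, had 38, 51 and 66 counts and then 0 in every EMO library, at least 16.8-fold lower (edgeR adjusted p = 4.6e-06). Both receptors were at or under the floor with EMO, and the median log2 change of the pair was -5.35 with each set to its bound and -8.60 as fitted. Tlr8, a sensor of single-stranded RNA, and Tlr12 had at most 10 counts in any library and too few to test. Tlr7, Tlr9 and Tlr11 had 0 counts in every library, which at this depth allows up to 3 counts. Tlr10 and Tlr13 were not analysed here.

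Levels of different receptors were compared as CPM (counts scaled to a common library size) per kilobase of the deposited gene length. On that scale the order in the TNF-α group was Tlr4 at 11.5 ± 0.648, Tlr3 at 6.34 ± 0.413, Tlr5 at 4.08, Tlr2 at 4.05 ± 0.375, Tlr1 at 1.25 and Tlr6 at 0.930 ± 0.0847. Tlr5 and Tlr2 did not differ beyond their spread there, and the libraries of Tlr1 and Tlr6 overlapped. With EMO the order was Tlr4 at 12.5 ± 1.30, Tlr3 at 0.819 ± 0.358, Tlr6 at 0.302 ± 0.104 and Tlr2 at 0.115 ± 0.0397, with Tlr5 and Tlr1 at or under the floor. Tlr2 therefore stood above Tlr6 in every TNF-α library and below it in every EMO library. With EMO this order rests on only 4, 7 and 4 counts of Tlr2, and the count of Tlr6 is uncertain, as said above.

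The make-up of the receptor transcripts shifted toward Tlr4. The level was summed over the 6 receptors with enough counts to be tested. Of this sum, Tlr4 made up 40.3%, 41.2% and 41.2% with TNF-α alone, and 88.8%, 91.3% and 93.3% once EMO was added. Tlr3 went from a mean share of 22.5% to 5.82%, Tlr5 from 14.5% to 0.0716%, Tlr2 from 14.3% to 0.834% and Tlr1 from 4.43% to 0, while Tlr6 went from 3.30% to 2.15%. The summed level itself was 28.2 ± 1.27 without and 13.8 ± 1.72 with EMO, so that the larger share of Tlr4 accompanied a smaller sum and a level of Tlr4 that was not called. Over the 4 member receptors alone, the share of Tlr4 was 50.5% ± 1.05 and then 91.2% ± 2.29. These shares were computed after the values had been seen and carry no test.

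**Figure D3:**
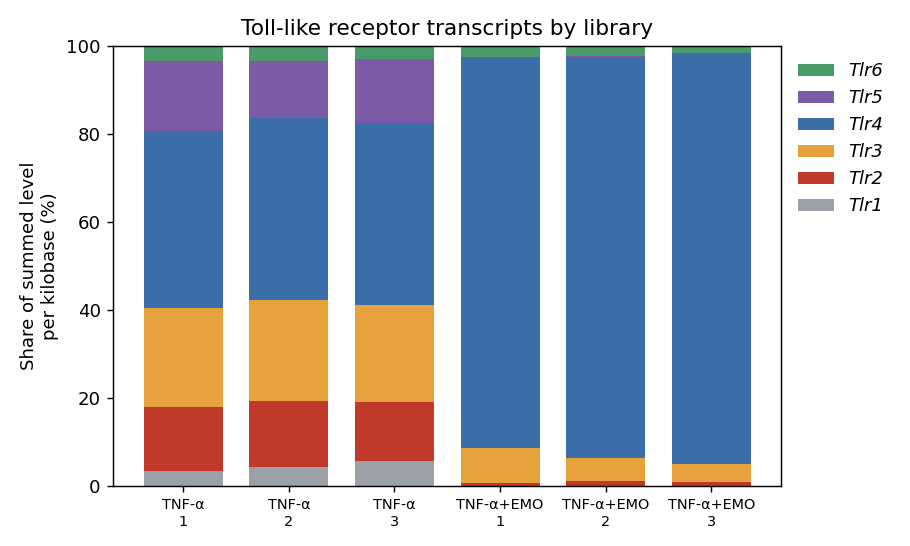
Share of each of 6 Toll-like receptors in their summed level per kilobase, in percent, with 1 stacked bar per library. Tlr4 takes about the same part of each TNF-α bar, 40.3% to 41.2%, and 88.8% to 93.3% of each TNF-α+EMO bar.

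Ratios between members within a library do not depend on the scaling between libraries. The log2 ratio of Tlr2 to Tlr6 per length was 2.12 ± 0.0182 in the TNF-α group and -1.25 ± 0.548 in the TNF-α+EMO group, a difference of -3.37. This ratio carries the limits of few Tlr2 counts with EMO and an uncertain count of Tlr6. That of Tlr2 to Tlr4 moved by -5.16, that of Tlr3 to Tlr4 by -3.15 and that of Cd14 to Tlr4 by -1.21. Irak1 to Irak4, both of one signalling complex, moved from 3.34 ± 0.103 to 1.80 ± 0.0218, a difference of -1.54. In each of these 5 ratios the libraries of the 2 groups did not overlap, and the two-sided exact permutation p was 0.1, or 0.1 after Benjamini-Hochberg adjustment over the 5, which is the smallest that 3 libraries against 3 can give.

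Cd14, the surface protein that hands lipopolysaccharide to Tlr4 and also serves Tlr2 and Tlr3 (chromosome 18, 29560365 to 29562153, minus strand), was lower with EMO. Counts of 1163, 1055 and 1139 stood against 451, 508 and 536 with EMO. The EMO libraries were close to each other and none reached the lowest TNF-α library. The mean fell from 1093 ± 57.8 to 510 ± 41.2 normalized counts, 2.14-fold lower, a log2 fold change of -1.10 (standard error 0.09, edgeR adjusted p = 4.4e-07). Per kilobase Cd14 was more abundant than any of the receptors, at 37.4 ± 1.98 and 17.5 ± 1.41.

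Among 12 other co-receptors, ligand carriers and receptor chaperones, 8 were tested. Of these, 6 were lower and 2 higher, against 41.4% and 39.4% of all genes. Over 2-fold, 4 were lower and 1 was higher, against 27.8% and 19.5%, and the median log2 fold change was -1.20. Lbp, the carrier that delivers lipopolysaccharide to Cd14, had 1112, 1225 and 972 counts without EMO and 11, 3 and 6 with it. Its log2 fold change of -7.28 (standard error 0.22, edgeR adjusted p = 3.0e-10) was below that of every member. Rftn1, a raft protein that helps Tlr3 and Tlr4 signal from endosomes, fell by 3.92 on the log2 scale (edgeR adjusted p = 4.5e-10). Unc93b1, which escorts nucleic acid-sensing receptors including Tlr3 to endosomes, fell by 1.42 (edgeR adjusted p = 3.9e-08), though it overlaps Ndufs8 and Aldh3b1 and its reads cannot be told apart from theirs without a stated strand setting.

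Cnpy3 and Cnpy4, which assist receptor folding and traffic, fell by 0.96 and 0.99 on the log2 scale, and Cnpy4 was named after its value was seen. Hsp90b1, the endoplasmic reticulum chaperone that many Toll-like receptors need, was slightly higher at 0.16 (edgeR adjusted p = 0.047), a call that was lost in most other settings. Rnf170, a ligase that promotes the breakdown of Tlr3, was higher by 1.43 (edgeR adjusted p = 5.7e-06). Cd180, a relative of Tlr4 also named after its value was seen, had 19, 14 and 13 counts and then 0 in every EMO library, at least 4.99-fold lower. Ly96, the partner of Tlr4 in lipopolysaccharide binding, and Cd36 were not analysed here.

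Myd88, the adaptor shared by most of these receptors (chromosome 8, 128022473 to 128026841, minus strand), was not called. Its counts were 688, 671 and 760 without EMO, and 739, 728 and 832 with EMO. After scaling, all 3 EMO libraries lay just above all 3 others, by a small margin. The means were 690 ± 44.9 and 785 ± 54.9 normalized counts, a log2 fold change of 0.19 with a 95% interval from -0.0044 to 0.38 (edgeR adjusted p = 0.066). Without TNF-α replicate 3 the value was 0.24 and was called higher (edgeR adjusted p = 0.047), and over all other settings it ran from 0.07 upward.

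Tirap, which brings Myd88 to Tlr2 and Tlr4 at the membrane, had 113, 84 and 95 counts and, with EMO, 37, 59 and 62. Its log2 fold change was -0.82 (standard error 0.24, edgeR adjusted p = 0.0096). Ticam2, which links Tlr4 to Ticam1, had 7, 16 and 7 counts and then 10, 7 and 5, too few to test. Sarm1 had at most 2 counts in any library and was named after its values were seen. Per kilobase, Myd88 stood at 16.3 ± 1.06 and 18.6 ± 1.30, and Tirap at 7.35 and 4.16.

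The Irak kinases moved in opposite directions. Irak4, the first kinase to join Myd88 (chromosome 7, 135803698 to 135832652, plus strand), had 310, 272 and 290 counts without EMO and 693, 689 and 686 with it. The 3 EMO libraries were nearly equal and all more than 2-fold above the highest TNF-α library. The mean rose from 284 ± 19.5 to 706 ± 8.07 normalized counts, 2.49-fold higher, a log2 fold change of 1.31 (standard error 0.09, edgeR adjusted p = 8.6e-08).

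Irak1, the kinase that Irak4 phosphorylates and that then binds Traf6 (chromosome X, 156716604 to 156725977, plus strand), was the most abundant member in both groups per length, and among the members that were called it changed least. Its counts were 2402, 2333 and 2168 in the TNF-α group and 1874, 1911 and 1852 in the TNF-α+EMO group. The groups did not overlap. The mean fell from 2248 ± 124 to 1925 ± 35.2 normalized counts, only 1.17-fold lower, a log2 fold change of -0.22 (standard error 0.06, edgeR adjusted p = 0.0066). The edgeR adjusted p stayed under 0.05 in every alternative setting, at most 0.040.

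Irak3 and Irak2 complete the family. Irak3, an inactive relative that holds back the release of Irak1 and Irak4 from Myd88 (chromosome 7, 64923615 to 64982281), had 1414, 1449 and 1379 counts and, with EMO, 5881, 5724 and 5037. It rose from 1381 ± 35.2 to 5685 ± 491 normalized counts, 4.12-fold higher, a log2 fold change of 2.04 (standard error 0.07, edgeR adjusted p = 7.1e-10). Irak2, which sustains signalling to Traf6, had 426, 441 and 416 counts and then 209, 195 and 238, a log2 fold change of -0.93 (standard error 0.11, edgeR adjusted p = 1.0e-05). Irak3 and Irak4 were thus higher and Irak1 and Irak2 lower with EMO. The groups did not overlap for any of the 4, as for 82.9% of all genes tested.

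Per length, Irak1 made up 52.5% ± 0.910 of the summed level of the 4 kinases in the TNF-α group and Irak3 31.9% ± 0.725. With EMO these shares were 23.2% ± 1.08 and 67.4% ± 1.82. Irak4 went from 5.20% to 6.65% and Irak2 from 10.4% to 2.81%. The summed level went from 79.6 ± 3.09 to 155 ± 9.33 CPM per kilobase, most of it Irak3. The shares were computed after the values had been seen and carry no test.

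**Figure D4:**
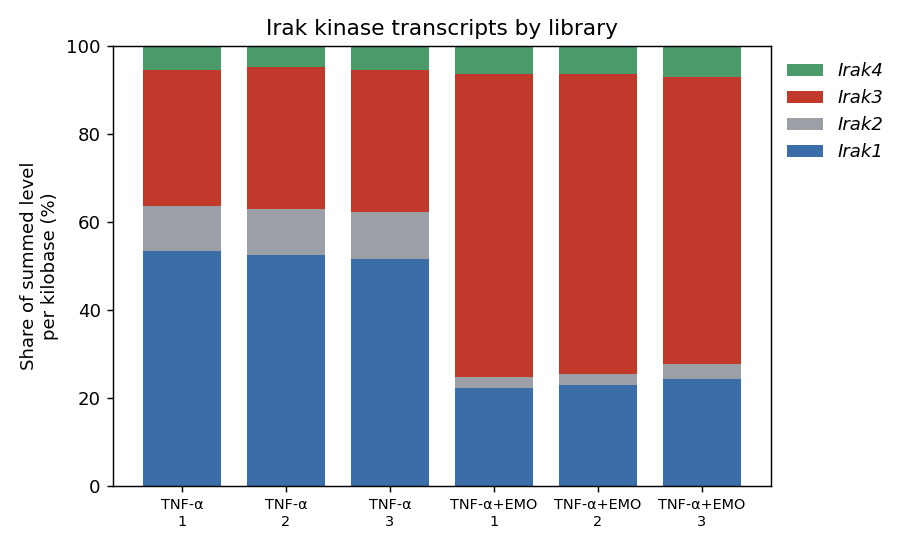
Share of each of 4 Irak kinases in their summed level per kilobase, in percent, with 1 stacked bar per library. Irak1 holds the largest part of each TNF-α bar and Irak3 the largest part of each TNF-α+EMO bar, 65.3% to 68.8%.

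Traf6, the ubiquitin ligase where the Myd88 route meets the kinases that activate NF-κB (chromosome 3, 91252829 to 91271607, plus strand), was higher with EMO. Counts were 319, 306 and 338 without EMO, and 480, 469 and 420 with EMO. Every EMO library lay above the highest TNF-α library, and EMO replicate 3 was the lowest of its group. The mean rose from 314 ± 15.4 to 468 ± 35.3 normalized counts, 1.49-fold higher, a log2 fold change of 0.58 (standard error 0.10, edgeR adjusted p = 1.9e-04).

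The other adaptors, kinases and ubiquitin ligases of the pathway were divided. Of 29 names, 26 were tested, with 10 lower, 9 higher and 7 not called, against 41.4% lower and 39.4% higher of all genes. Over 2-fold, 4 were lower and 3 higher, against 27.8% and 19.5%, and the median log2 fold change was 0.15. The lowest were Ikbke, the kinase related to Tbk1, at -3.76 (edgeR adjusted p = 1.2e-10), Irf7, an interferon-inducing factor, at -2.93, and Traf3, the ligase that links Ticam1 to Tbk1, at -1.42. Irf7 overlaps Phrf1, so its value is uncertain. Peli2, a ligase of the Irak complex named after its value was seen, was the remaining gene lower by over 2-fold, at -1.32.

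Among those higher, Irak3 was followed by Tbkbp1, a scaffold of Tbk1, at 2.03 (from 25.1 to 102 normalized counts), and by Ikbkg, the regulatory subunit of the IκB kinase, at 0.92. Pik3ap1, an adaptor to phosphoinositide 3-kinase with few counts that was named after its value was seen, was higher at 3.55. Tbk1, the kinase of Irf3, was slightly lower at -0.29 (edgeR adjusted p = 0.0035). Irf3 itself, named after its value was seen, was not called, at 0.20 (edgeR adjusted p = 0.098), though it overlaps Bcl2l12.

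Inhibitors of Toll-like receptor signalling were divided too, as all genes were. Of 18 names, 16 were tested, with 9 lower, 5 higher and 2 not called, against 41.4% lower and 39.4% higher of all genes. Over 2-fold, 6 were lower and 3 higher, against 27.8% and 19.5%, and the median log2 fold change was -0.45. The 3 that were over 2-fold higher were Atf3, Irak3 and Tollip. Some genes count in more than one list: Irak3 here and among the adaptors and kinases, Tnfaip3 here and among the Myd88-route targets, Il1rl1 here and among the interleukin-1 family receptors, and Irf7 among the adaptors and kinases and the Ticam1-route targets. Atf3, a stress-induced repressor of cytokine genes, had 15, 19 and 19 counts without EMO and 833, 836 and 847 with it, 49.4-fold higher, a log2 fold change of 5.63 (standard error 0.12, edgeR adjusted p = 1.7e-11). Tollip, a protein that binds Irak1 and restrains it, was already abundant, with 3913, 3939 and 3882 counts, and reached 13798, 13777 and 14106 with EMO, 3.73-fold higher (edgeR adjusted p = 9.8e-11).

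Other inhibitors fell. Tnfaip3, the ubiquitin-editing enzyme A20 that is itself an NF-κB target, was 20.5-fold lower, from 2316 ± 57.1 to 113 ± 20.2 normalized counts (edgeR adjusted p = 5.4e-11). Sigirr, an inhibitory receptor of the interleukin-1 receptor family, had 46, 60 and 58 counts and then 3, 4 and 8, a log2 fold change of -3.35 (edgeR adjusted p = 8.8e-06). Ptpn6, a tyrosine phosphatase, was at -3.33, and Zc3h12a, an RNase that degrades cytokine mRNAs, was at -1.94.

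Receptors of the interleukin-1 family use the same Myd88, Irak and Traf6 proteins. Of 7 names, 6 were tested, and 5 were lower and none higher (median log2 fold change -2.28). The shares over all genes were 41.4% lower and 39.4% higher. Il1rl2, named after its value was seen, was the gene not called, at 0.69 (edgeR adjusted p = 0.14). Il1r1, the receptor of interleukin-1, fell from 721 ± 61.3 to 96.0 ± 7.44 normalized counts, 7.51-fold lower (edgeR adjusted p = 9.7e-10). Il18rap and Il1rap, accessory chains of the interleukin-18 and interleukin-1 receptors, fell by 1.65 and 1.22 on the log2 scale.

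Cytosolic RNA and DNA sensors reach Traf3, Tbk1 and Irf3 by other routes, and Nod1 and Ripk2 reach NF-κB. Of 13 names, 10 were tested, with 9 lower, none higher and Mavs not called at 0.17 (edgeR adjusted p = 0.098), and a median log2 fold change of -1.78. For all genes the shares were 41.4% lower and 39.4% higher. Dhx58, a helicase that modulates RNA sensing, was at -2.40 (edgeR adjusted p = 8.0e-09), Ripk2, the kinase of Nod receptors, at -2.11 and Nod1 at -2.07. Ifih1, the sensor of long double-stranded RNA, and Eif2ak2, an RNA-activated kinase, fell by less, at -0.62 and -0.43. Zbp1, a nucleic acid sensor named after its value was seen, was at least 6.08-fold lower and had no count above the floor with EMO.

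Genes that the Myd88 route induces through NF-κB were mostly lower. Of 17 names, 12 were tested, with 10 lower, 1 higher and 1 not called, against 41.4% lower and 39.4% higher of all genes. The median log2 fold change was -3.72, or -3.16 with 3 genes at the floor put at their lower bound. Ccl20, a chemokine, fell from 1422 ± 72.5 to 1.36 ± 0.583 normalized counts, at least 474-fold lower. Ptgs2, the inducible cyclooxygenase, was 37.9-fold lower and Ccl2, a monocyte chemokine, 21.0-fold lower (edgeR adjusted p = 1.6e-11 and 1.6e-12). Nfkbia, the NF-κB inhibitor, fell by 0.38 on the log2 scale, and Lcn2 was not called at 0.07 (edgeR adjusted p = 0.40).

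Il6 went the other way from most of that list. It rose from 71.6 ± 16.6 to 168 ± 8.21 normalized counts, 2.34-fold higher (edgeR adjusted p = 1.5e-04). These genes also respond to TNF-α and interleukin-1 receptors, and the counts do not tell which receptor drove them.

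Genes that the Ticam1 route induces through Irf3 and interferon were also mostly lower. Of 16 names, 15 were tested, with 13 lower, none higher and 2 not called, against 41.4% lower and 39.4% higher of all genes. Over 2-fold, 12 were lower, against 27.8%. The median log2 fold change was -4.96, or -3.18 with 4 genes at the floor put at their lower bound. Ccl5, a T cell chemokine, fell from 3078 ± 242 to 0.685 ± 0.593 normalized counts, at least 1025-fold lower. Mx1, an antiviral GTPase, fell from 394 ± 16.3 to 0 in every EMO library, at least 131-fold lower, and its relative Mx2 from 993 ± 86.3 to 1.72 ± 2.98. Rsad2 and Ifit2, antiviral genes induced by interferon, were not called, at -0.22 (edgeR adjusted p = 0.25) and -0.11 (edgeR adjusted p = 0.33), while Gbp2, an interferon-induced GTPase, fell by 0.85. Ifnb1, the interferon gene of this list, was named after its values were seen and had at most 1 count in any library. Every library had TNF-α, Ticam1 itself was not analysed, and the counts do not tell which receptor or cytokine drove these genes. The number called higher among the other Toll-like receptors, interleukin-1 family receptors, cytosolic sensors and these targets was 0 by edgeR, at an unadjusted p under 0.05 as well, and 0 by DESeq2.

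Matrix and alarmin genes whose products are reported ligands of Tlr2 or Tlr4 were split. Of 15 names, 8 were tested, with 5 lower and 3 higher, against 41.4% and 39.4% of all genes (median log2 fold change -2.27). Vcan, a matrix proteoglycan reported to bind Tlr2, fell from 38868 ± 1840 to 111 ± 16.5 normalized counts, 349-fold lower (edgeR adjusted p = 1.1e-12). Fn1, fibronectin, was 56.1-fold lower and Tnc, tenascin-C, 7.55-fold lower. Bgn, the proteoglycan biglycan, named after its values were seen, fell from 56570 ± 4322 to 7663 ± 694 normalized counts, 7.38-fold lower (edgeR adjusted p = 1.4e-10). Hmgb1, a nuclear protein released as an alarmin, fell by 1.66 on the log2 scale, but near-identical copies of this gene make its count uncertain. Lgals3, galectin-3, was 4.36-fold higher, Hspd1, a mitochondrial chaperone, was 1.43-fold higher, and Dcn, the proteoglycan decorin, named after its values were seen, had at most 4 counts without EMO and 24 to 33 with it. Dcn is also counted among the fibroblast-like synoviocyte markers.

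**Figure D5:**
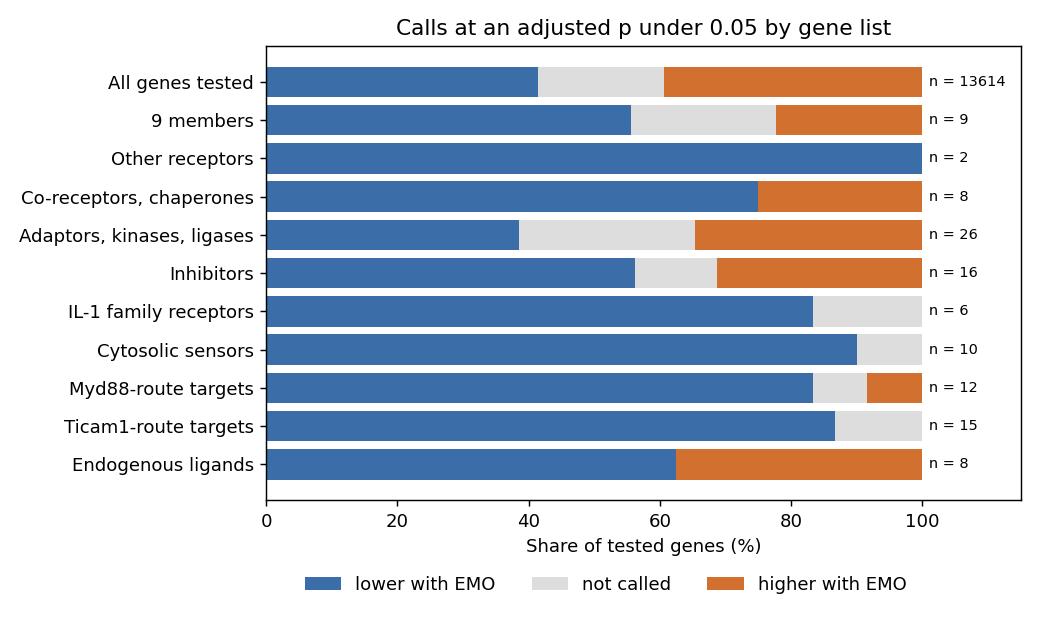
Share of tested genes called lower, called higher or not called at an adjusted p under 0.05 by edgeR, in percent, for all 13614 genes and for each list, with the number tested beside each bar. Of the Ticam1-route targets 13 of 15 were lower, whereas the adaptors, kinases and ligases, with 10 lower and 9 higher of 26, stood near the bar for all genes.

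The genes whose pattern over the 6 libraries was most like that of Tlr2 were searched for among genes outside the lists with a mean of at least 100 counts. They were Adm (Euclidean distance 0.329 on centred log2 normalized counts), Tpx2 (0.385) and Brip1 (0.443), with log2 fold changes of -5.00, -5.06 and -5.22. For Tlr4 they were Mkln1 (0.0529), Ppp4r2 (0.0660) and Eif4g2 (0.0677), with log2 fold changes of 0.09, 0.08 and 0.14. The likeness describes 6 libraries in 2 groups, and it mostly reflects the size of the difference between the groups.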

How the data were processed

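RNA-seq counts per gene of 6 rat RA-FLS libraries were used, 3 per group, grouped by the sample titles and treatments. The authors deposited raw counts without normalization, from poly(A)-selected paired-end libraries. Per the labels and the submitters' processing notes, FastQC, Trimmomatic, HISAT2 and the build Rnor_6.0 were used, while the counting program and its strand setting are not given in the sources used here. Deposited FPKM values, and the authors' own comparison columns (group means, log2 fold change, p and adjusted p), were not used. The deposited gene length served for levels per kilobase.

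Genes with 10 or more counts in 3 or more libraries were kept. TMM scaling and the robust quasi-likelihood F test came from edgeR 4.0.16 under R 4.3.3. The self-check used simulated counts. A group at or under a floor of 3 counts per library gives a lower bound of a fold. This floor covers counting error only. Within-library log2 ratios had 0.5 added to each count. The members and lists were chosen with earlier results of these data known. The genes named are the members, the 3 lowest and 3 highest log2 fold changes of each list among genes with a mean of at least 50 counts, 10 fixed pathway genes (Ly96, Tirap, Ticam2, Unc93b1, Irak2, Irak3, Traf3, Tbk1, Tollip and Sigirr), and the 3 genes nearest to Tlr2 and to Tlr4, with exceptions said in the text. Of the Toll-like receptors that are no members, all but Tlr5 were named outside this rule, as were the cell type markers. Alternatives were DESeq2 1.42.0, other scalings, filters and thresholds, the replicate block and leaving out each library. The receptor and Irak shares, and keeping the same genes when a library was left out, were chosen after seeing the data. No genome sequence was used beyond the RefSeq promoter windows on GRCr8.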

Additional observations from a re-analysis of the deposited data

How the results depend on the processing

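The directions of all 9 members held under DESeq2, other scalings, other filters, the replicate block and leaving out each library, and the 7 that were called kept their calls. With the replicate block, 5 members were lower and 2 higher, as without it. Deviations of same-numbered libraries were hardly correlated (0.0196, -0.000655 and 0.0565, against a mean of -0.0126 for different numbers). These values cannot show whether the libraries were paired, because small differences between pairs would give the same. Leaving out each library, Tlr4 ran from 0.063 to 0.20 and Myd88 from 0.12 to 0.24, each past the threshold once. With libraries scaled by their totals alone, Tlr4 was at 0.0059 and Myd88 at 0.072 (edgeR adjusted p = 0.96 and 0.45). The direction of these 2 members is therefore not settled. Requiring over 2-fold left 2659 genes and 1 member higher, 4 adaptors, kinases and ligases lower and 3 higher, and 3 inhibitors higher. Of the other receptors, 4 were lower with no filter and 1 with at least 50 counts. Of the Myd88-route targets, 2 were higher with no filter. Co-receptors and chaperones called higher numbered 1 under every alternative except leaving out TNF-α+EMO replicate 3 (range 1 to 2, against 2), Hsp90b1 being at the threshold. Leaving out a library gave 0 to 1 interleukin-1 family receptors higher (1 without TNF-α replicate 3) and 0 to 1 cytosolic sensors higher (1 without TNF-α+EMO replicate 3). The cause of these shifts was not tested. Depth limits the values of genes at or near the floor in one group, such as Tlr1, Tlr2 and Tlr5 with EMO.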
